A study of Sylvia borin with 20 samples.

Results

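The pyruvate dehydrogenase complex sits in the mitochondrial matrix and turns pyruvate, the product of glycolysis, into acetyl-CoA for the citrate cycle or for fatty acid synthesis. Its core carries lipoate, a sulfur-containing cofactor on a swinging arm that passes the acetyl group from the decarboxylase to coenzyme A and is then reoxidized. Mitochondria make this lipoate themselves: a short fatty acid is built on the acyl carrier protein, sulfur is inserted into it, and the product is handed to the proteins that need it. Avian erythrocytes keep their nucleus and mitochondria, so transcripts of these genes can be measured in bird blood.

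The 10 genes described here were chosen by name as the subunits of the complex and the enzymes of mitochondrial fatty acid synthesis and lipoylation, out of 20898 gene symbols in the expression tables. PDHX and OXSM had been noticed beforehand because they were higher in fat birds, and the question was whether the other 8 followed. The values of PDHX and OXSM between conditions are therefore a description without a test. Blood came from 10 wild garden warblers (Sylvia borin) caught on spring migration and kept in single cages with food for the stopover. Each bird was bled on day 5, when it was fat, and on day 1, when it was lean, which gave 10 fat and 10 lean libraries of poly(A) RNA. Lean birds were selected by body mass at capture, the fat birds are the same individuals after refueling, and condition cannot be told apart from the days of captivity and feeding.

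All values below are FPKM (fragments mapped to a gene, scaled for its length and for the size of the library) divided by a further scaling factor of each library, called scaled FPKM, and so are per length. Levels of different genes can be set side by side only as far as their annotated models are complete, which is least sure for PDHB, annotated over 709 bases. Reads were also mapped to the genome of another species, the zebra finch. How far differences in sequence between the species change the level of each gene was not tested. Differences are log2 fold changes of fat over lean on the log2(FPKM + 0.1) scale, which understates the change of genes with low values. Aligned depth, taken from coverage over FPKM in the same gene, was 1.27 to 3.16 gigabases in fat libraries and 0.882 to 4.71 in lean libraries. Fat libraries held fewer symbols at 1 FPKM or more in each of the 10 birds, 4146 ± 192 against 4737 ± 316 in lean libraries (SD, n = 10 each, exact sign-flip test over birds, two-sided, adjusted p = 0.00488 over 10 library measures). Markers of the blood cell types moved with the condition as well. The summed level of the erythroid markers was 166544 to 300577 in fat and 122791 to 187334 in lean libraries and was higher in all 10 birds when fat. Most of that sum came from the globin gene HBAA, which was not called (adjusted p = 0.110 in limma, 0.221 with bird in the model). Of the 8 markers found, 0 passed in the limma fit (3 at an unadjusted p under 0.05). With bird in the model 2, TFRC and EPB42, were called higher. By sign 7 of the 8 were higher, while SLC4A1 had a log2 fold change of −0.10 and was lower in 7 of 10 birds when fat. The thrombocyte markers summed to 19.2 to 45.6 in fat and 28.3 to 116.3 in lean libraries, lower in all 10 birds when fat, and 3 of the 6 tested were called lower, 5 with bird in the model. Monocyte and heterophil markers summed to 1.44 to 9.18 in fat and 6.33 to 46.2 in lean libraries, with 1 of 5 called lower (4 with bird in the model) and LYZ at 0 throughout, and pan-leukocyte markers to 1.92 to 8.09 in fat and 4.02 to 19.02 in lean libraries, with 0 of 3 called (limma, 3 at an unadjusted p under 0.05) and 2 called lower with bird in the model. T cell markers were at most 0.772 in fat and 1.46 in lean libraries, CD3E being at 0 in all 20. B cell markers summed to 0.534 to 9.90 in fat and 1.49 to 14.7 in lean libraries, with 0 of 3 called (limma, 1 at an unadjusted p under 0.05) and 1 called lower with bird in the model. Among all genes tested, 1.49% were called higher and 3.27% lower in limma, and 5.18% higher and 8.08% lower with bird in the model. At an unadjusted p under 0.05 in limma, 576 of these 7800 genes were higher and 1155 lower. In whole blood, fewer cells of a type and less RNA per cell cannot be told apart, and the part of these markers' cells in the results below was not tested.

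PDHX encodes the subunit that anchors dihydrolipoamide dehydrogenase to the core of the complex and, like the core enzyme, carries a lipoyl group. In birds 1 to 10 it stood at 3.36, 2.73, 2.51, 5.46, 7.02, 4.45, 3.43, 3.98, 6.55 and 3.89 in the fat libraries, against 1.70, 1.41, 0.931, 1.10, 1.30, 2.17, 1.83, 1.10, 2.51 and 1.51 in the lean libraries. It was higher in the fat library of 10 of 10 birds, a direction that 2.15% of the 7800 genes tested showed in every bird. The ranges met only at their ends, where fat bird 3 lay just under lean bird 9, and 9 fat libraries were above the highest lean library. PDHX is thus not among the 0.0513% of genes tested in which every fat library lay above every lean one. The means were 4.34 ± 1.54 in fat and 1.56 ± 0.504 in lean libraries (SD, n = 10 each), a log2 fold change of 1.40 with a standard error of 0.23. Within birds the difference ran from 0.87 in bird 7 to 2.35 in bird 5, with a median of 1.32, so the size of the change differed between birds while its direction did not.

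OXSM encodes the mitochondrial condensing enzyme that extends the growing acyl chain from which lipoate is made. Its levels in birds 1 to 10 were 0.977, 4.86, 2.86, 2.14, 4.32, 3.32, 1.43, 3.03, 1.27 and 2.11 in the fat libraries, against 0, 1.17, 1.81, 1.89, 0.880, 0.644, 0.417, 0.693, 0.373 and 1.502 in the lean libraries. Again the fat library was higher in 10 of 10 birds, but the groups overlapped more than for PDHX, with 7 fat libraries above the highest lean library, and the lowest fat value and the lean value listed at 0 both came from bird 1. The means were 2.63 ± 1.29 in fat and 0.938 ± 0.638 in lean libraries (SD, n = 10 each), a log2 fold change of 1.61 with a standard error of 0.44. Bird 4 differed least, by 0.17, and bird 1 most, by 3.43, and the size in bird 1 depends on the added 0.1 because its lean value was 0. The mean depth of reads along the gene was low, 0.912 to 5.29 in fat and 0 to 4.79 in lean libraries, beside 3.97 to 17.97 in fat and 1.57 to 6.97 in lean libraries for PDHX. In the 8 birds whose codes agree between the labels and the study's sample table, the fold change of OXSM was 1.71, and 0.71 once the uniquely mapped share of reads entered as a covariate. The same covariate left PDHX at 1.47, beside 1.37 without it. Over all 7800 genes it took the number called in these 8 birds from 40 to 0 (limma). Whether PDHX and OXSM differ in their response to it was not tested.

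**Figure D1:**
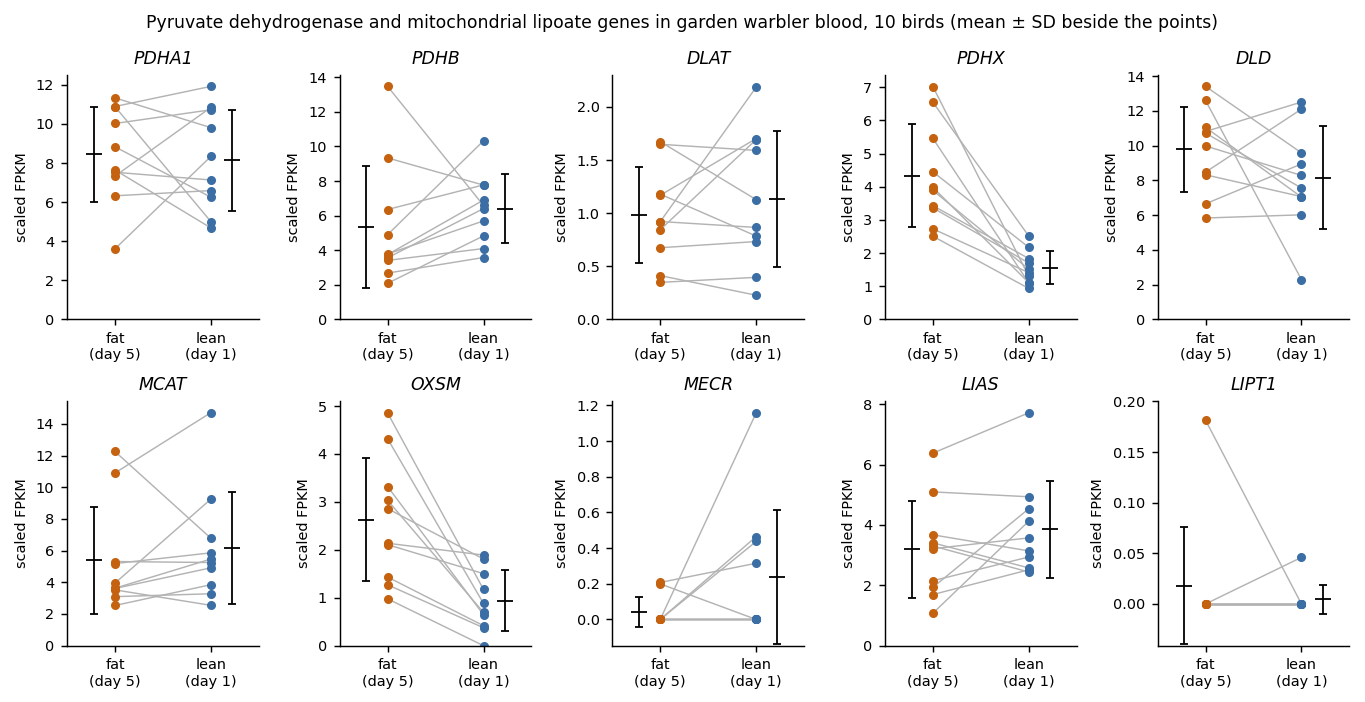
Scaled FPKM (vertical axis) of each of the 10 genes in the fat (day 5, left) and lean (day 1, right) library of each bird, joined by a line, with the mean ± SD of 10 libraries beside the points. For PDHX and OXSM the fat point lies above the lean point in all 10 birds, for PDHA1, PDHB, DLAT, DLD, MCAT and LIAS birds go both ways, and MECR and LIPT1 lie at 0 in most libraries.

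No other member was called. Of the 8, 7 passed the filter on low values, MECR among them only through its lean libraries (mean 0.237, against 0.0407 in fat libraries), so it is left out of the counts here. Of the other 6, 0 passed the test, also at an unadjusted p under 0.05 (limma, Benjamini-Hochberg adjusted over 7800 genes), beside 4.76% called among all genes, 1.49% higher and 3.27% lower in fat birds. At the unadjusted threshold, 576 of the 7800 genes were higher and 1155 lower. By sign alone, 2 of the 6 were higher and 4 lower in fat birds, where the median over all genes was −0.10. The sign of PDHA1 turned with FPKM and TPM as deposited, that of DLD with TPM and that of DLAT with quantile normalization, and none of the 6 was called in any of the 22 alternative fits run.

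PDHA1 and PDHB encode the alpha and beta chains of the decarboxylase, the entry enzyme of the complex, which the kinases described below switch off. PDHA1 had a lowest, median and highest level of 3.61, 8.24 and 11.3 in fat libraries, against 4.68, 7.74 and 11.9 in lean libraries. The groups covered nearly the same range, and the fat library was higher in 5 of 10 birds. The log2 fold change was 0.05 with a standard error of 0.21 and a 95% interval of −0.39 to 0.50 (limma, adjusted p = 0.912). For PDHB the lowest, median and highest level was 2.09, 3.76 and 13.5 in fat libraries, against 3.58, 6.50 and 10.3 in lean libraries. The fat library was lower in 8 birds and higher in birds 6 and 8, whose fat libraries held the 2 highest fat values, 13.5 and 9.34. For PDHB the log2 fold change was −0.42 with a standard error of 0.28 and an interval of −0.996 to 0.162 (adjusted p = 0.386 in limma, 0.178 with bird in the model). Without bird 6 it was −0.58 (adjusted p = 0.226).

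DLAT is the lipoate-bearing transacetylase that forms the core, and DLD the dehydrogenase that reoxidizes the lipoyl arm and is shared with the other lipoate-dependent complexes. DLAT was low, with a lowest, median and highest level of 0.348, 0.920 and 1.67 in fat libraries, against 0.227, 0.996 and 2.19 in lean libraries. The groups overlapped almost fully and 5 of 10 birds were higher when fat. The log2 fold change was −0.10 (standard error 0.36, interval −0.84 to 0.64, limma adjusted p = 0.902). This interval is wider than that of PDHA1, but the fit behind both has no bird term. Within birds the differences spread alike, with an SD of 0.61 for DLAT and 0.64 for PDHA1. DLD reached 5.84, 10.4 and 13.4 in fat libraries, against 2.29, 7.92 and 12.5 in lean libraries, in the same order of lowest, median and highest. The fat library was higher in 6 birds, and the lowest lean value, in bird 8, stood apart from the next, 6.02 in bird 9. The log2 fold change of DLD was 0.33 with a standard error of 0.24 and an interval of −0.16 to 0.83 (limma, adjusted p = 0.416), and without bird 8 it was 0.10.

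Among the transcripts of the complex, PDHX made up 15.2 ± 5.30% (10.2 to 26.1%) of the summed level of the 5 subunits in fat libraries and 6.53 ± 2.89% (3.39 to 12.5%) in lean libraries (SD, n = 10 each). The 4 other subunits together held 24.5 ± 5.42 in fat and 23.8 ± 5.73 in lean libraries. The ratio of PDHX to DLAT, the other lipoyl-bearing subunit, was 5.47 ± 3.23 in fat and 2.20 ± 2.01 in lean libraries, and PDHX was above DLAT in all 10 fat but only 6 lean libraries. PDHX exceeded PDHB in 5 fat and 0 lean libraries, and it exceeded PDHA1 in 0 libraries of either condition. These shares rest on the PDHX values that guided the choice of genes and carry no test.

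**Figure D2:**
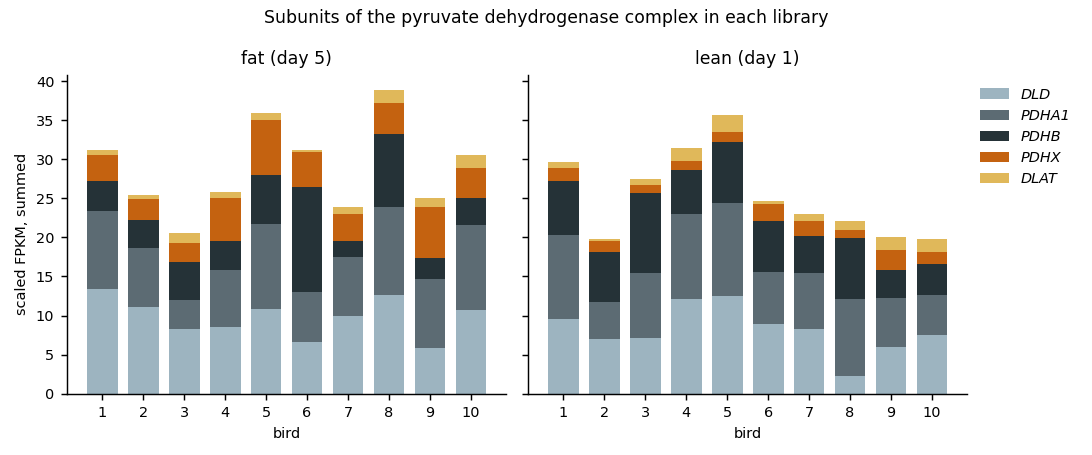
Scaled FPKM of the 5 subunits of the complex, stacked for each bird (horizontal axis), in fat libraries on the left and lean libraries on the right. The orange PDHX segment takes 10.2 to 26.1% of the bar in fat and 3.39 to 12.5% in lean libraries, while DLD and PDHA1 make up most of the bar in every library but that of fat bird 6.

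On the fatty acid side, MCAT loads malonyl groups onto the mitochondrial acyl carrier protein before OXSM acts. MECR is the reductase that completes each round of elongation, later than OXSM but not directly after it. MCAT had a lowest, median and highest level of 2.54, 3.79 and 12.3 in fat libraries, against 2.55, 5.36 and 14.7 in lean libraries. Only 3 birds were higher when fat, and birds 8 and 10 held the 2 highest fat values, 12.3 and 10.9. Its log2 fold change was −0.22 with a standard error of 0.31 and an interval of −0.85 to 0.42 (limma, adjusted p = 0.719), and it was −0.11 without bird 4 and −0.34 without bird 8. MECR was listed above 0 in 2 fat libraries, birds 2 and 4 at 0.199 and 0.207, and in 4 lean libraries, birds 4, 5, 7 and 10 at 0.315, 1.16, 0.464 and 0.437. Both libraries were at 0 in 5 birds, and the log2 fold change of −0.74 (standard error 0.49) is set largely by the added 0.1 and was −0.42 without bird 5. It is given without a test, because MECR passed the filter only through its lean libraries. These tables hold no read counts, so no detection limit can be given for MECR.

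LIAS, an iron-sulfur enzyme, inserts the sulfur atoms that complete lipoate, and LIPT1 transfers lipoyl groups to the core enzymes. LIAS had a lowest, median and highest level of 1.07, 3.26 and 6.38 in fat libraries, against 2.44, 3.36 and 7.72 in lean libraries. The fat library was higher in 4 birds, with nearly equal medians, and bird 3 held the highest value in both conditions. Its log2 fold change was −0.34 with a standard error of 0.28 and an interval of −0.92 to 0.25 (limma, adjusted p = 0.507), and it was −0.17 without bird 9. LIPT1 was listed above 0 in 1 fat library, bird 9 at 0.182, and in 1 lean library, bird 4 at 0.0460, and fell below the filter. OXSM exceeded LIAS in 4 fat and 0 lean libraries and MCAT in 2 fat and 0 lean libraries.

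**Figure D3:**
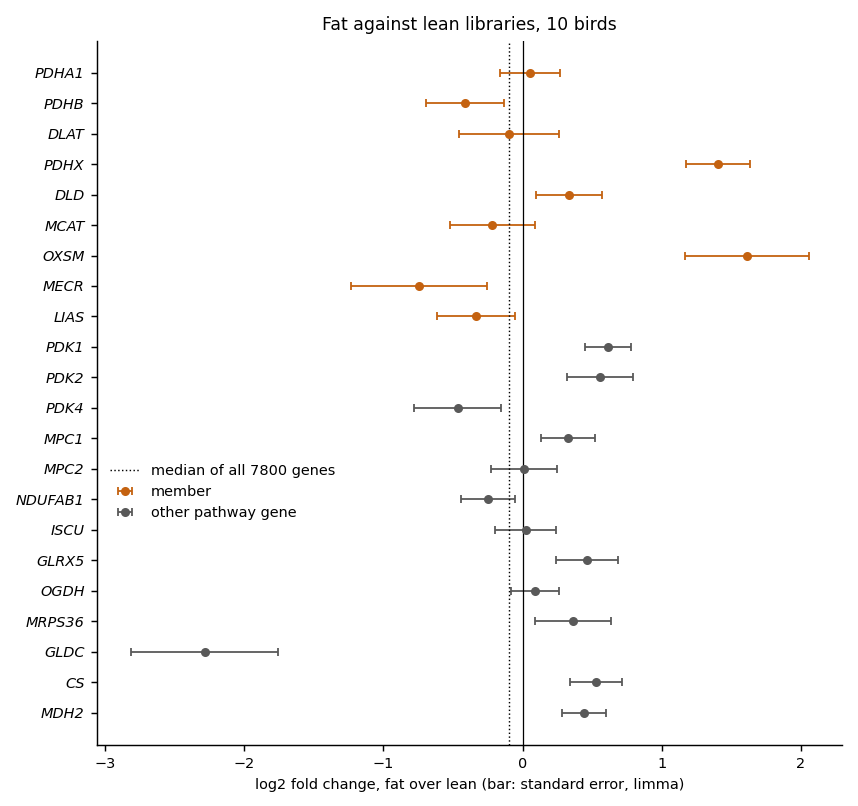
Log2 fold change of fat over lean (horizontal axis) with its limma standard error (bars) for the 9 fitted members in orange and the named genes of neighboring pathway steps in gray, and the median of all 7800 genes as a dotted line. PDHX at 1.40 and OXSM at 1.61, noticed beforehand for this rise, lie to the right of every other gene shown. The other members lie between −0.74 and 0.33, and GLDC at −2.28 lies farthest to the left.

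The order of the levels was similar in both conditions apart from the genes chosen for their difference. In fat libraries it ran DLD, PDHA1, MCAT, PDHB, PDHX, LIAS, OXSM, DLAT, MECR and LIPT1, and in lean libraries DLD, PDHA1, PDHB, MCAT, LIAS, PDHX, DLAT, OXSM, MECR and LIPT1. Neighbors in this order that involve neither PDHX nor OXSM were compared within libraries by exact sign flips over the 10 birds (two-sided, 10 tests, pairs with MECR included). These neighbors were picked by rank in the values then compared, so the p-values cannot decide the order. DLAT was above MECR in 10 of 10 fat libraries, but MECR was listed at 0 in 8 of them, so the size of that gap is set by the added 0.1. No p is given for pairs with MECR. PDHA1 lay above MCAT by 0.76 in fat libraries in 7 birds (exact sign-flip test, adjusted p = 0.0781). The other neighbors without MECR had adjusted p between 0.163 and 0.932 in the same exact test. DLD, first by mean in both conditions, was above PDHA1 in 7 of 10 fat and 6 of 10 lean libraries.

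The level of a gene in both libraries of a bird shows whether differences between birds on day 1 were also present on day 5. Whether such differences are a lasting trait of the bird was not tested. PDHX and OXSM were chosen for a rise paired by bird, which is not independent of this relation. Their correlations are therefore a description without a test. Among the other members fitted, MECR left out, 0 had a correlation between the fat and the lean level over the 10 birds that passed after adjustment (permutation test, 100000 resamples, adjusted over all 9 members fitted). MCAT and DLAT had an unadjusted p under 0.05 for Pearson's r in the same permutation test. MCAT had r = 0.69 (permutation p = 0.0282, adjusted 0.0999) and rho = 0.81 (permutation p = 0.00727, adjusted 0.0654), and r was 0.52 when the 2 birds most distant from the median lean level were left out. Bird 10 was high in MCAT in both conditions, at 10.9 in its fat and 14.7 in its lean library. The codes of birds 8 and 10 differ between the labels and the study's sample table, so their pairing is less sure. No correlation was run in the 8 birds with matching codes. DLAT had r = 0.73 (permutation p = 0.0174, adjusted 0.0999) and rho = 0.49 (permutation p = 0.155, adjusted 0.403), but r was 0.19 without birds 2 and 6, which were lowest in both libraries, so the relation rests on them. OXSM had r = 0.65 and rho = 0.47, with r at 0.54 without the 2 farthest birds. PDHB had r = 0.57 (permutation p = 0.0857, adjusted 0.193) and rho = 0.75 (permutation p = 0.0167, adjusted 0.0751), with 0.63 without the 2 farthest birds. PDHX had r = 0.32 and rho = 0.22, and r was −0.32 without birds 3 and 9. Across all genes tested the median r was 0.31, and 30.5% had r above 0.5.

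**Figure D4:**
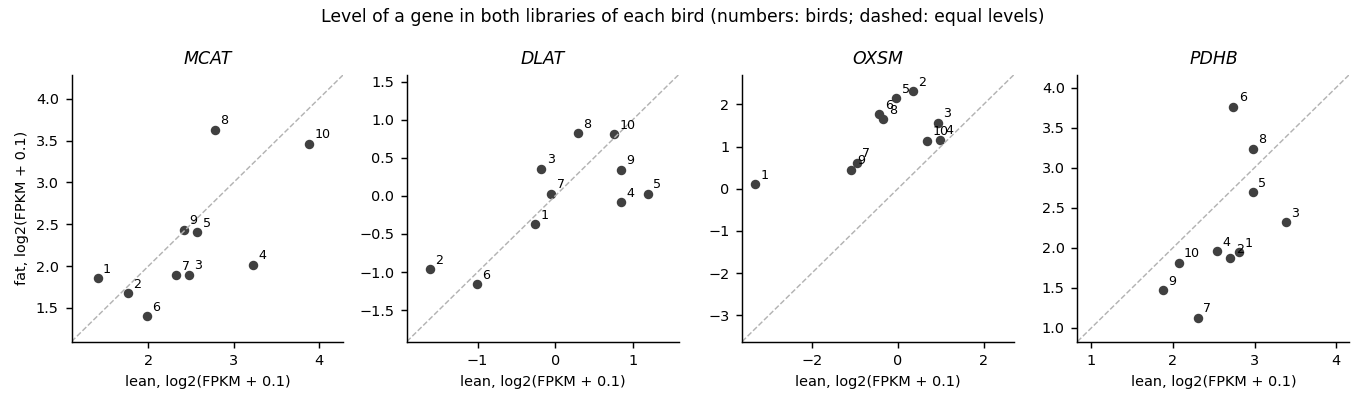
Level of MCAT, DLAT, OXSM and PDHB in the fat library (vertical axis) against the lean library (horizontal axis) of each numbered bird, both as log2(FPKM + 0.1), with a dashed line of equal levels. All 10 birds lie above the line for OXSM, and birds 2 and 6 lie apart at the lower left for DLAT.

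The activity of the complex is set by kinases that phosphorylate PDHA1 and shut it off and by phosphatases that reverse this. PDK1, one of the kinases, had a lowest, median and highest level of 11.4, 15.9 and 31.9 in fat libraries, against 7.75, 10.7 and 14.2 in lean libraries. The groups overlapped, but the fat library was higher in 10 of 10 birds, as for 2.15% of all genes tested. Bird 8 was highest in both conditions. The means were 17.3 ± 5.90 in fat and 10.99 ± 2.07 in lean libraries (SD, n = 10 each), a log2 fold change of 0.61 with a standard error of 0.17 (limma, adjusted p = 0.0401, 0.00687 with bird in the model). The call is narrow: without bird 1, 2, 3, 5, 6, 7, 9 or 10 the adjusted p was 0.0547 to 0.1005, and with FPKM as deposited the fold change was 0.31 (adjusted p = 0.251).

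PDK2, the kinase with the second highest level after PDK4 by mean over all libraries, was 30.6, 58.0 and 81.7 in fat libraries at its lowest, median and highest, against 12.01, 42.8 and 64.2 in lean libraries. In 9 of 10 birds the fat library was higher, with a log2 fold change of 0.56, a standard error of 0.24 and a limma adjusted p of 0.163, which was 0.0179 with bird in the model. It was 0.37 without lean bird 8, and 0.25 with FPKM and 0.15 with TPM as deposited. PDK3 averaged 16.8 ± 4.11 in fat and 12.1 ± 4.69 in lean libraries (SD, n = 10 each), higher in 8 birds, with a log2 fold change of 0.52 (limma adjusted p = 0.125, 0.0263 with bird in the model). PDK4, the kinase best known for its rise when fat is burned instead of glucose, had a different pattern. It was 18.7, 59.6 and 94.3 in fat libraries at its lowest, median and highest, against 33.1, 74.1 and 223 in lean libraries. Bird 9 held the highest value in both conditions, the fat library was higher in 4 birds, and the log2 fold change was −0.47 with a standard error of 0.31 (limma, adjusted p = 0.381), or −0.26 without bird 7. The phosphatase PDP2 averaged 4.24 ± 2.16 in fat and 6.56 ± 3.603 in lean libraries (SD, n = 10 each). It was lower in the fat library of 10 of 10 birds, a direction that was not counted over all genes. Its log2 fold change was −0.61 (limma adjusted p = 0.242, 0.0175 with bird in the model). PDPR, a regulatory subunit of the phosphatase, averaged 1.12 ± 0.303 in fat and 1.16 ± 0.549 in lean libraries (SD, n = 10 each), and PDP1 was below the filter. In all, 1 of the 6 tested kinases and phosphatases was called higher and 0 lower, beside 1.49% and 3.27% of all genes. With bird in the model 3 were higher and 1 lower, beside 13.3% of all genes called in that model, 5.18% higher and 8.08% lower. PDK3, PDP2 and PDPR are named after their values were seen.

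**Figure D5:**
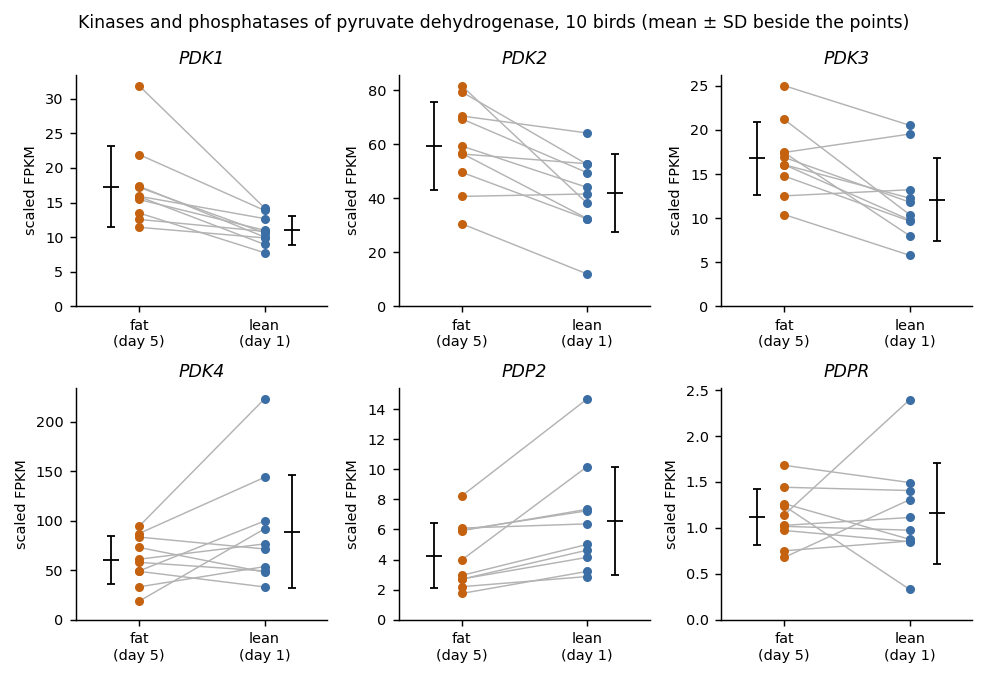
Scaled FPKM (vertical axis) of 4 kinases and 2 phosphatase genes of pyruvate dehydrogenase in the fat (left) and lean (right) library of each bird, joined by a line, with the mean ± SD of 10 libraries beside the points. PDK1 is higher in the fat library of 10 of 10 birds and PDP2 lower in 10 of 10, while PDK4 and PDPR lines cross.

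Further genes of the pathway were taken by role into 7 lists, the kinases and phosphatases among them, which held 61 genes. Of these, 56 were found and 42 tested, and PDK1 was the only one called higher and GLDC the only one called lower. Among all genes 4.76% were called in the same fit, 1.49% higher and 3.27% lower. With bird in the model 8 were called higher and 2 lower, in a model that called 5.18% of all genes higher and 8.08% lower. The median log2 fold change of the 42 was 0.03 beside −0.10 over all genes. The 42 include SLC19A2, named here for its low values, which passed the filter only through its lean libraries (mean 0.269, against 0.0862 in fat libraries).

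GLDC, the decarboxylase of the glycine cleavage system, which also runs on a lipoyl arm, was 0, 0.328 and 0.832 in fat libraries at its lowest, median and highest, against 0.325, 1.41 and 7.01 in lean libraries. It was lower in the fat library of 10 of 10 birds, a direction that was not counted over all genes, and listed at 0 in 4 of those libraries. The log2 fold change was −2.28 with a standard error of 0.53 (limma, adjusted p = 0.0202, 0.00299 with bird in the model), and without bird 1 it was −2.04 (adjusted p = 0.0587). Because of the values at 0 its size depends on the pseudocount, −3.64 with 0.01 and −0.94 with 1. The call was also lost with quantile normalization (−2.05, limma adjusted p = 0.0517) and in the 8 birds with matching codes (−2.31, limma adjusted p = 0.0928, and −2.05, 0.711 with the uniquely mapped share). White cell and thrombocyte markers were lower in the same libraries, and their part in this result was not tested. GCSH, the lipoate carrier of that system, was listed at 0 in 4 fat and 3 lean libraries and had a log2 fold change of −1.13 with a standard error of 1.076 (limma, adjusted p = 0.570). It is named after its values were seen. Of the 8 tested genes of the other lipoylated complexes, 0 were called higher and 1, GLDC, was called lower, beside 3.27% of all genes. Their median was −0.21, and the most abundant, OGDH and MRPS36 of the oxoglutarate dehydrogenase complex, had 0.09 (limma adjusted p = 0.806) and 0.36 (limma adjusted p = 0.448).

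Sulfur for lipoate is drawn from iron-sulfur clusters, so the genes that assemble them were examined with the other lipoylation genes. Of 12 tested, 0 were called, with 1 higher and 1 lower at an unadjusted p under 0.05 (limma). Among all 7800 genes, 1.49% were called higher and 3.27% lower in that fit. At the unadjusted threshold, 576 of the 7800 were higher and 1155 lower. With bird in the model 2 of the 12 were called higher, beside 5.18% of all genes. GLRX5, which passes clusters on within mitochondria, averaged 428 ± 169 in fat and 304 ± 98.9 in lean libraries (SD, n = 10 each). It was higher in 10 of 10 birds, as were 2.15% of all genes tested. Its log2 fold change was 0.46 (limma adjusted p = 0.225, 0.0191 with bird in the model), and 0.15 with FPKM as deposited, 0.058 with TPM and 0.19 after quantile normalization. LYRM4, a partner of the enzyme that supplies the sulfur and named here after its values were seen, had 0.49 (limma adjusted p = 0.298, 0.0233 with bird in the model). ISCU, the scaffold on which clusters are built, averaged 401 ± 124 in fat and 404 ± 159 in lean libraries (SD, n = 10 each) and had a log2 fold change of 0.02 (limma, adjusted p = 0.969), whose sign turned with FPKM or TPM as deposited and with quantile normalization. These cluster genes stood far above LIAS, which uses their product.

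Pyruvate reaches the complex through the mitochondrial carrier formed by MPC1 and MPC2. MPC1 averaged 67.4 ± 20.8 in fat and 54.2 ± 17.9 in lean libraries (SD, n = 10 each), with a log2 fold change of 0.32 (limma, adjusted p = 0.329), and it turned to −0.08 with TPM as deposited. MPC2 was near 5.43 in fat and 5.76 in lean libraries on average, with 0.01 (limma, adjusted p = 0.987), and its sign turned under 6 alternatives besides leaving out single birds. Of the 4 pyruvate genes tested, 0 were called and 0 had an unadjusted p under 0.05 (limma). Among all 7800 genes 4.76% were called, and 576 were higher and 1155 lower at that unadjusted threshold. LDHB and PC, named here for their low values, were listed at 0 in 6 and 2 fat and in 6 and 6 lean libraries. The lack of a call says little for LDHB and PC. NDUFAB1, the acyl carrier protein on which the lipoate chain grows, averaged 19.01 ± 4.97 in fat and 23.04 ± 6.57 in lean libraries (SD, n = 10 each), with a log2 fold change of −0.25 (limma, adjusted p = 0.463), and it was the only 1 of the 5 further fatty acid synthesis genes that passed the filter.

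Downstream, 0 of 9 citrate cycle genes were called in limma, 3 of them higher at an unadjusted p under 0.05, and those 3 were called higher with bird in the model, which called 5.18% of all genes higher. In limma without bird, 1.49% of all 7800 genes were called higher, and 576 were higher at the unadjusted threshold. By sign alone 5 of the 9 were higher and 4 lower. CS, citrate synthase, which takes up the acetyl-CoA that the complex makes, averaged 54.8 ± 16.1 in fat and 37.5 ± 10.3 in lean libraries (SD, n = 10 each). It was higher in 8 birds, with a log2 fold change of 0.53 (limma adjusted p = 0.0944, 0.0175 with bird in the model), or 0.22 with FPKM and 0.12 with TPM as deposited. MDH2, the malate dehydrogenase that closes the cycle, averaged 56.1 ± 11.9 in fat and 41.7 ± 10.9 in lean libraries (SD, n = 10 each). It was higher in 10 of 10 birds, as were 2.15% of all genes tested. The log2 fold change of MDH2 was 0.44 (limma adjusted p = 0.0943, 0.0115 with bird in the model), or 0.13 with FPKM and 0.036 with TPM as deposited. The third gene, IDH3B of the NAD-linked isocitrate dehydrogenase, had 0.75 (limma adjusted p = 0.0902, 0.0170 with bird in the model) and is named after its values were seen.

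The surroundings of the genes were read from the zebra finch annotation on which the tables are built. The tables name each sequence by an accession only, so places are given relative to neighboring genes. All 10 members lie on the plus strand, and for 4 of them the nearest upstream gene lies on the other strand within 1 kb: PDHX and APIP are 693 bases apart, PDHB and KCTD6 296 bases, MCAT and TSPO 60 bases, and LIAS and RPL9 overlap by 21 bases. OXSM lies 2214 bases from NGLY1 in the same arrangement. Of these 5 neighbors 0 were called, beside 4.76% of all genes tested, a share at which 5 genes say little. Only APIP had an unadjusted p under 0.05 (limma), beside 576 of all 7800 genes higher and 1155 lower at that threshold. APIP averaged 7.09 ± 2.32 in fat and 5.17 ± 1.22 in lean libraries (SD, n = 10 each) and was higher in 8 birds. Its log2 fold change was 0.43 (limma adjusted p = 0.179, 0.0755 with bird in the model) beside 1.40 for PDHX. NGLY1 averaged 1.75 ± 0.352 in fat and 1.47 ± 0.492 in lean libraries (SD, n = 10 each), with 0.28 (limma, adjusted p = 0.471) beside 1.61 for OXSM. KCTD6, TSPO and RPL9 had 0.25, −0.38 and 0.32 (limma, adjusted p = 0.377, 0.710 and 0.415).

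The annotated length differs widely, with a span of 35793 bases for PDHX and 709 for PDHB. LIPT1 overlaps MITD1 by 1725 bases, MCAT overlaps LOC116807733 by 1384 and PDHA1 overlaps MAP3K15 by 358, each on the opposite strand. The library kit keeps the strand, but no source used here gives the strand setting of the quantification, so reads in these overlaps may count for either gene. Of the 10 members 9 were matched by symbol in the garden warbler assembly bSylBor1.pri, MECR being the exception.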

How the data were processed

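Blood RNA of 10 birds was sequenced by the authors as paired reads, trimmed with ERNE 2, checked with FastQC, mapped with STAR to the zebra finch genome (release 106 annotation) and quantified with StringTie, and per the labels the libraries were stranded. The tables deposited by the authors give for each gene the coverage (signal, mean depth per base), FPKM and TPM of 1 library, with no read counts and no normalization between libraries, so no counting error or detection limit is given. Here, lines that share a symbol were summed, and the sums of FPKM were scaled by median-of-ratio factors from the 4487 symbols above 0 in all 20 libraries. Factors averaged 0.925 ± 0.117 in fat and 1.14 ± 0.0758 in lean libraries (SD, n = 10 each). A mean of 0.1 deposited FPKM was required, which 7800 of 20898 symbols met, and these were compared as log2(FPKM + 0.1) with limma 3.58.1 in R 4.3.3 (two-sided, with a mean-variance trend, p adjusted by Benjamini-Hochberg, threshold 0.05), with no bird term, as the methods of the study name none. The authors' count model could not be run, since the tables hold FPKM. Other steps used Python 3.11.15 with scipy 1.17.1, pandas 2.3.3, numpy 2.4.6 and, for plots, matplotlib 3.10.9. The limma and sign-flip steps were tested on simulated data.

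Fat and lean libraries with the same replicate number come from the same bird according to the labels and the study's sample table, except that the codes of birds 8 and 10 differ between them, which left 8 birds with matching codes. Deviations from the condition means correlated across genes with r of 0.152 to 0.382 within birds (median 0.236), against a median of −0.0245 between different birds. Values of the uniquely mapped share entered only as a covariate.

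The members and lists were chosen with earlier results of these data known. Named are all members, their nearest genes, and in each pathway list every gene called and the 2 most abundant, exceptions being stated; some genes that this rule takes are not reported here. LDHA, PCK2, HSD17B8, BCKDHA and IDH3G had no row under these symbols. Alternatives were another pseudocount (0.01, 1), another filter (none, mean FPKM 1), another scaling (quantile normalization, unscaled FPKM, unscaled TPM), bird in the model, 8 birds with and without the uniquely mapped share, depth as a covariate, leaving out each bird, and leaving out lean bird 8.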

Additional observations from a re-analysis of the deposited data

Results flagged for a closer look

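Within each condition, the highest and lowest library were compared with the rest by Dixon's criterion for 66 groups of 10 libraries. Of these groups, 7 stood out. Chance alone gives about 1 in 20 only for normally distributed values, and several of these groups are skewed or hold values at 0. The number that stood out is therefore no measure of an excess. Among the members, MECR was 1.16 scaled FPKM in lean bird 5, with the next lean library at 0.464. LIAS was 7.72 in lean bird 3, with the next at 4.94. LIPT1 was 0.182 in fat bird 9 and 0.0460 in lean bird 4, with all others of either condition at 0. A single value above 0 among values at 0 always stands out by this criterion.

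Among the regulators and the other lipoylated complexes, PDK1 was 31.9 in fat bird 8, with the next fat library at 21.9, and without that bird its log2 fold change was 0.55 (limma, adjusted p = 0.0431). GLDC was 7.01 in lean bird 2, with the next lean library at 2.08, and without that bird its log2 fold change was −2.21 (limma, adjusted p = 0.0224). The summed monocyte and heterophil markers were 46.2 in the same lean library of bird 2, with the next at 20.3.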

How the results depend on the processing

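Of the members other than PDHX, OXSM and MECR, none that was tested was called in any of the 22 alternatives. The log2 fold change of PDHX stayed between 1.02 and 1.61 and that of OXSM between 0.71 and 2.02, with 1.30 to 1.46 and 1.41 to 1.77 when single birds were left out. The number of all genes called, 371, was 120 with no filter, 882 with FPKM and 1243 with TPM as deposited, 177 with quantile normalization, 160 with depth as a covariate, 186 without lean bird 8, and 73 to 400 without single birds (119, 154, 220, 123, 171, 154 and 73 without birds 1, 2, 3, 6, 7, 8 and 10, and 38 higher with 65 lower without bird 5). It was 40 in the 8 birds with matching codes and 0 once the uniquely mapped share was added to them (limma, 517 at an unadjusted p under 0.05). Scaling shifts all genes together: their median log2 fold change was −0.10 in the main comparison, −0.35 with FPKM and −0.43 with TPM as deposited, and 0.05 after quantile normalization, and 68.7%, 97.1%, 98.6% and 58.8% of calls were lower in fat birds. With the replicate block (bird in the model) 1034 genes were called, and of the pathway genes other than the members 8 were higher and 2 lower in fat birds, against 1 and 1 without it. The block changed no call of a member. The pathway count of higher genes was 0 with no filter, FPKM, TPM, quantile normalization, the 8 birds with and without the covariate and depth, and 0 to 1 without single birds. That of lower genes was 2 with FPKM, 4 with TPM, 0 with quantile normalization, 0 in the 8 birds with and without the covariate, and 0 to 1 without single birds. NDUFAB1 was called lower only with TPM (−0.65, limma adjusted p = 0.0439).

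Changes of sign, all in genes that were not called, were as follows, and their cause was not tested beyond the shift of all genes. With FPKM as deposited PDHA1 was −0.25, ISCU −0.29, MPC2 −0.29 and OGDH −0.22. With TPM PDHA1 was −0.35, DLD −0.066, ISCU −0.38, MPC1 −0.082, MPC2 −0.39, MRPS36 −0.043 and OGDH −0.32. With quantile normalization DLAT was 0.28, ISCU −0.16 and OGDH −0.075, and with a pseudocount of 1 MPC2 was −0.0023. In the 8 birds PDHA1 was −0.10 and MPC2 −0.24, and with the covariate MPC2 was −0.79, MRPS36 −0.14 and OGDH −0.078. Without lean bird 8 MPC2 was −0.11. Without single birds PDHA1 ran from −0.062 to 0.19, DLAT from −0.18 to 0.017, ISCU from −0.10 to 0.22, MPC2 from −0.14 to 0.12 and OGDH from −0.023 to 0.17. The correlation of DLD between the libraries of a bird was −0.16, against 0.081 with TPM and 0.021 with FPKM. Without the 2 birds farthest from the median it was 0.27 for DLD, −0.058 for PDHA1, −0.32 for PDHX, 0.28 for MECR and −0.46 for LIAS. Depth per gene is known only as coverage, which limits what can be said of OXSM, MECR and LIPT1.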
